A study of Homo sapiens with 7 samples.

Results

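The 4 ERBB receptor genes (EGFR, ERBB2, ERBB3 and ERBB4) and 6 genes for EGF-like ligands (EGF, TGFA, AREG, EREG, HBEGF and BTC) were examined in the expression file of HCT116, an established cell line from a human colon carcinoma. The members were chosen by name as a receptor family and its ligands, with earlier results of these data known, and all 10 were found among the 20423 genes of the file. Their levels came from 1 library of polyA RNA. Per the labels, the cells were grown in McCoy 5A medium with fetal bovine serum. The labels give the same culture text, with G418 selection of transposon-bearing cells, for all samples, and do not say whether the cells for RNA carried a transposon or received the drug. The series also holds 3 transposon insertion libraries of the wild-type piggyBac transposase, 2 of its fusion to SP1, and 1 list of SP1 ChIP-seq peaks. Insertions and peaks are positioned on hg18 and were not placed beside these genes here, since no annotation of that build was used.

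ERBB receptors are cell-surface tyrosine kinases that pair with themselves or with each other when a ligand binds. Paired receptors phosphorylate their tails, recruit adaptor proteins and drive the RAS-MAPK and PI3K routes. The ligands are made as membrane-anchored precursors, and cell-surface proteases release them to act on the same or neighbouring cells. In the intestinal epithelium these signals are known for driving growth and repair.

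Levels are RPKM, reads scaled to gene length and to the mapped reads of the library, so they can be compared between genes of different length. With 1 library there is no spread between replicates. No order or ratio given here could be tested, and none is a statement about HCT116 cells beyond this library. The labels and files used here do not give the depth of this library. Of all genes 3398 were listed at 0, and the lowest value above 0 was 8.01e-15 RPKM, with 46 genes above 0 but below 0.001. A small value above 0 therefore does not by itself stand for reads.

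AREG and EREG led the family by a wide margin, at 242 and 125 RPKM, and EGF and ERBB4 lay at the bottom, at 0.0156 and 0.0144 RPKM. In between, from high to low, came TGFA at 19.2, ERBB2 at 18.4, EGFR at 14.3, ERBB3 at 9.23, HBEGF at 5.55 and BTC at 1.26 RPKM. Of the 10 members 8 had at least 1 RPKM, against 57.0% of all genes, and the same 8 had at least 0.1 RPKM, against 71.9%. At least 5 RPKM was reached by 7 members, against 36.0% of all genes, and at least 100 RPKM by 2, against 2.43%. The median of the members was 11.7 RPKM and that of all genes 1.91 RPKM. Between successive members of the order the RPKM ratio was 1.93 from AREG to EREG and 6.54 from EREG to TGFA. It was 1.04 from TGFA to ERBB2, 1.29 from ERBB2 to EGFR, 1.55 from EGFR to ERBB3 and 1.66 from ERBB3 to HBEGF. The widest step, 81.0, lay between BTC and EGF.

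**Figure D1:**
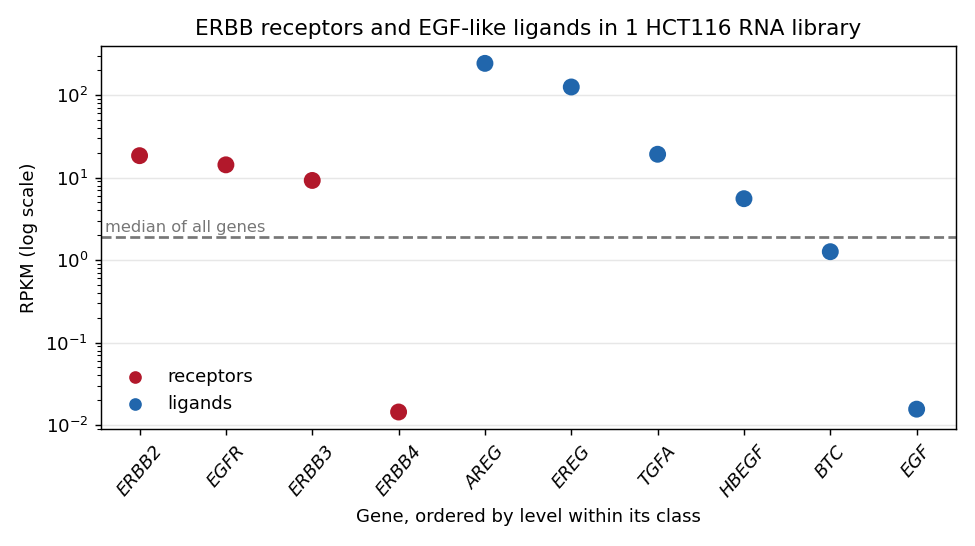
RPKM (log axis) of the 4 receptors (red) and 6 ligands (blue) in the single RNA library, 1 point per gene, with the median of all genes (1.91 RPKM) as a dashed line. ERBB2, EGFR and ERBB3 lie between 9.23 and 18.4 RPKM, while the ligands spread from 0.0156 to 242 RPKM.

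Ranked among all genes, AREG stood at 186 and EREG at 390, with 99.1% and 98.1% of genes lower. TGFA stood at 2980, ERBB2 at 3096 and EGFR at 3842, with 85.4%, 84.8% and 81.2% of genes lower. ERBB3 stood at 5261 and HBEGF at 6966. BTC, at 11170, was below the median gene, with 45.3% of genes lower. EGF and ERBB4 stood at 16465 and 16508. Only 560 and 517 of the 17025 genes above 0 had lower values than these genes.

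**Figure D2:**
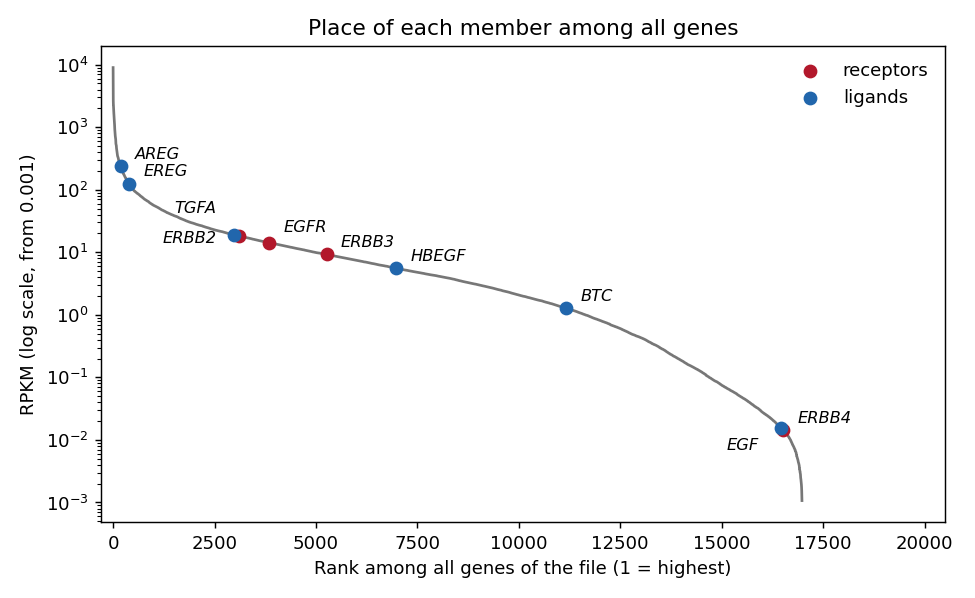
RPKM (log axis, from 0.001) of all genes against their rank (grey line), with receptors in red and ligands in blue. AREG and EREG sit on the steep start of the curve and 5 members lie between ranks 2980 and 6966. BTC is at rank 11170, and EGF and ERBB4 sit on the falling end of the curve.

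Among the receptors, ERBB2, EGFR and ERBB3 lay within a 2.00-fold range and ERBB4 was near 0. EGFR binds all 6 ligands studied here, ERBB2 has no known soluble ligand and acts as a partner of the others, and ERBB3 has a weak kinase and signals through its partners. ERBB2 made up 43.9% of the summed receptor RPKM, EGFR 34.0%, ERBB3 22.0% and ERBB4, the receptor shared by neuregulins and several EGFR ligands, 0.0344%. ERBB2 was above EGFR by 0.35 on the log2(RPKM + 1) scale. ERBB2 overlaps MIEN1 in the RefSeq annotation, which the file lists under its older name C17orf37 at 73.4 RPKM. The counting is not stated to use strand, so reads in the overlap may count for either gene. Other members also overlap annotated genes. EGFR overlaps the antisense gene EGFR-AS1, EREG the non-coding gene LOC105377276, and TGFA the transcript TGFA-IT1 and other non-coding genes. ERBB4 overlaps a microRNA, pseudogenes and a non-coding gene, and EGF the pseudogene RNU6-35P. Of these only the microRNA, MIR548F2, was matched in the file, at 0 RPKM. Overlaps were taken from whole gene spans and not from exons. Whether reads from the others count for the member is therefore not known.

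Set among all 58 human receptor tyrosine kinases, a list added after the members' values had been seen, ERBB2 was 10th, EGFR 12th, ERBB3 14th and ERBB4 47th by RPKM. The highest were the ephrin receptor EPHA2 at 90.3 RPKM, the collagen receptor DDR1 at 60.2, PTK7 at 32.8 and the hepatocyte growth factor receptor MET at 31.5 RPKM. A level of 1 RPKM was reached by 31 of the 58 genes (53.4%), close to the 57.0% of all genes. Of the 58, 10 stood at 0 in the file, against 3398 of all 20423 genes. The median of the 58 was 1.68 RPKM. ERBB genes together made up 8.67% of the summed RPKM of these kinases. Just around ERBB4 were MUSK at 0.0168 and KIT at 0.00830 RPKM.

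**Figure D3:**
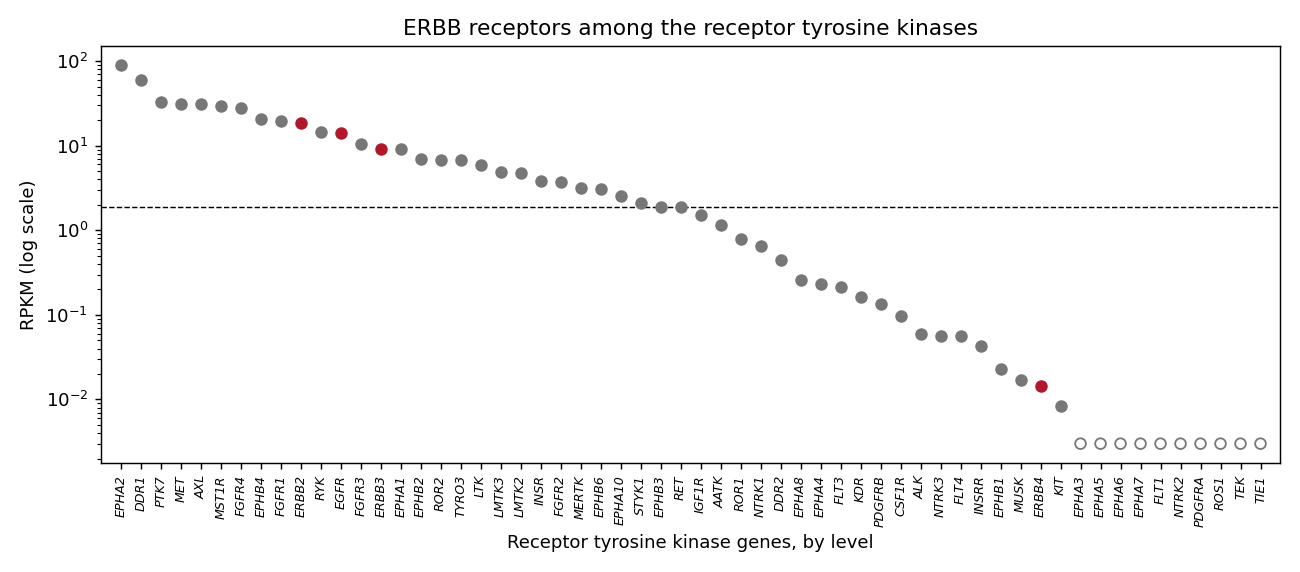
RPKM (log axis) of 58 receptor tyrosine kinase genes in order of level, with the ERBB receptors in red; open circles mark genes listed at 0, drawn at the bottom, and the dashed line is the median of all genes. ERBB2, EGFR and ERBB3 are the 10th, 12th and 14th, and ERBB4 is the second lowest above 0.

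The ligand RPKM was concentrated in AREG and EREG, which encode amphiregulin and epiregulin and gave 61.6% and 31.8% of the summed ligand RPKM. Amphiregulin binds EGFR, and epiregulin binds EGFR and ERBB4. TGFA, for transforming growth factor alpha, an EGFR ligand, gave 4.87%. HBEGF and BTC, for heparin-binding EGF-like growth factor and betacellulin, which bind EGFR and ERBB4, gave 1.41% and 0.321%. EGF, for the founding ligand of the family, gave 0.00397%. AREG was 17.0 times and EREG 8.78 times the level of EGFR, and TGFA 1.34 times. The summed ligand RPKM was 9.38 times the summed receptor RPKM, and 3.61 times without AREG. AREGB, once the name of a second, near-identical copy, is a RefSeq synonym of AREG. The expression file has no entry of that name, and the sources used here do not say how reads that match more than 1 place were counted. The value of AREG is therefore uncertain.

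AREG and EREG are direct neighbours on chromosome 4, in a run of 4 EGF-like ligand genes whose other members were low. In map order the RefSeq annotation gives EPGN, EREG, AREG and BTC. Their levels were 0.101, 125, 242 and 1.26 RPKM, so the high pair lay between low genes of the same family, and AREG was 192 times BTC. EPGN encodes epigen, another EGFR ligand. Before this run came CXCL3, CXCL2 and MTHFD2L, at 1.26, 0.992 and 1.36 RPKM, and after it PARM1, RCHY1 and THAP6, at 4.99, 1.16 and 1.37 RPKM. All 6 flanking genes were thus below 5 RPKM, a level that only 36.0% of all genes reached. PARM1 was above the median gene at 1.91 RPKM.

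**Figure D4:**
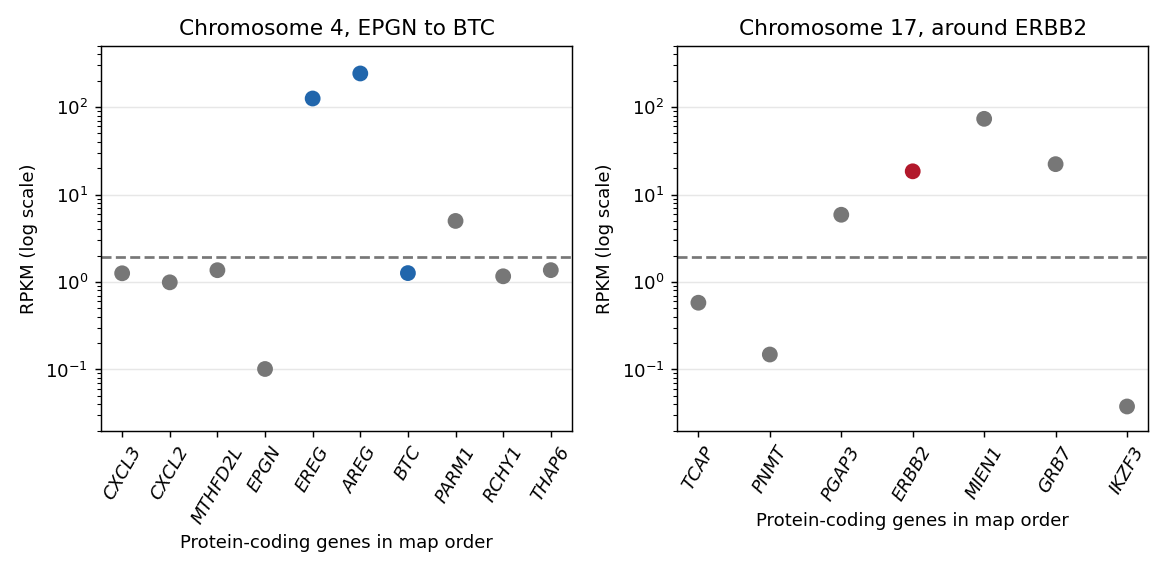
RPKM (log axis) of protein-coding genes in map order on chromosome 4 around the ligand genes (left; blue, the members EREG, AREG and BTC) and on chromosome 17 around ERBB2 (right; red), with grey points for genes that are not members and the median of all genes dashed. EREG and AREG stand at 125 and 242 RPKM between genes below 5 RPKM, whereas ERBB2 at 18.4 RPKM lies beside MIEN1 and GRB7, which are higher.

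Other members had neighbours at mixed levels. On chromosome 17 ERBB2 at 18.4 RPKM lay between PGAP3 at 5.87 and MIEN1 at 73.4 RPKM. The next gene, GRB7, encodes an adaptor that binds ERBB receptors and stood at 22.3 RPKM, 1.21 times ERBB2. TCAP, PNMT and IKZF3 in the same stretch were at 0.580, 0.148 and 0.0377 RPKM. On chromosome 12 ERBB3 at 9.23 RPKM lay between RPS26 at 4.34 and PA2G4, for the ERBB3-binding protein EBP1, at 65.4 RPKM. Of the 6 neighbours of ERBB3, 4 were lower than ERBB3. On chromosome 7 SEC61G, before EGFR, was at 33.6 RPKM, and LANCL2 and VOPP1, after it, at 3.10 and 6.53 RPKM. EGF, also on chromosome 4 but outside the run of ligand genes, was lower than all 6 of its neighbours, which ranged from 0.107 to 8.96 RPKM. These neighbours are the 3 nearest protein-coding genes on each side, and 2 of those of EGFR had no match in the file.

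Promoter windows of 300 bases, 250 before and 50 after the annotated start, are shown for AREG and EREG, the highest ligands, and for EGFR and EGF. They come from RefSeq on GRCh38.p14, which gave 11 windows for 9 of the members. The sequences read 5′ to 3′ on the gene's strand. Capitals mark 3 motifs searched on both strands: the GC box GGGCGG (or CCGCCC), which SP1 is known to bind, the TATA element TATAAA (or TTTATA), and the cAMP response element TGACGTCA. The motifs do not overlap in the windows shown. AREG is at chr4:74444886-74445185 and EREG at chr4:74364895-74365194, both on the plus strand. The first EGFR window is at chr7:55018767-55019066 and EGF at chr4:109912633-109912932, also on the plus strand.
AREG: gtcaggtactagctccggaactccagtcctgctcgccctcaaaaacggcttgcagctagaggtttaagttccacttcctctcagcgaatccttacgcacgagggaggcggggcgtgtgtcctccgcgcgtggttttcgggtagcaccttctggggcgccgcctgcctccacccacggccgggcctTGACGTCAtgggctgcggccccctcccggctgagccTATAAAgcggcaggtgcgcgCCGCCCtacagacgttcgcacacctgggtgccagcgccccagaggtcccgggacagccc
EREG: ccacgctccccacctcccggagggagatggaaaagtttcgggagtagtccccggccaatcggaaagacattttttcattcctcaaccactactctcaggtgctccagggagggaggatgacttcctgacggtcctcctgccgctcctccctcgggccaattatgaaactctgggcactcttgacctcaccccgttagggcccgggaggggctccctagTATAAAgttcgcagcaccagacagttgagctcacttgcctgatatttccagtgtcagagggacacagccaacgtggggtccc
EGFR: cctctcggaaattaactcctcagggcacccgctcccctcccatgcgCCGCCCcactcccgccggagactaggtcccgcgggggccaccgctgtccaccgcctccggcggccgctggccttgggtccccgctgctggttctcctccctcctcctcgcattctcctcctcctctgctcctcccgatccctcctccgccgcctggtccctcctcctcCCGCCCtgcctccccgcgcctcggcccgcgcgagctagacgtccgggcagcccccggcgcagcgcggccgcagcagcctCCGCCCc
EGF: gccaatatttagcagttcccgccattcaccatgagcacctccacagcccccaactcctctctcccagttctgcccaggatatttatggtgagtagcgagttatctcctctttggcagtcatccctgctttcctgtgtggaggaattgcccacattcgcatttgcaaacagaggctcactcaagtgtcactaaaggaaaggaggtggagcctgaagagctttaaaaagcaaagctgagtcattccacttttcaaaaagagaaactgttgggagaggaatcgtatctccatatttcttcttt

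AREG and EREG each held TATAAA in the reading direction of the gene, starting 29 and 32 bases before the annotated start. TATAAA or TTTATA was found at any place in 11.5% of all 35116 windows. The share with TATAAA in the reading direction near these places was not counted. AREG also held TGACGTCA, 65 bases before its start, found in 1.85% of windows, and 1 GC box, while EREG held no GC box. The EGFR window shown held 3 GC boxes and no TATAAA, and the EGF window none of the 3 motifs. GC content was 66.3%, 57.7%, 75.3% and 46.7% for the windows of AREG, EREG, EGFR and EGF, against a median of 58.7% over all windows. A second EGFR window, at chr7:55109589-55109888, held 2 copies of TATAAA and no GC box. These copies start 146 and 36 bases before its annotated start, the nearer one at a place like those in AREG and EREG. A motif match describes letters in a window and not binding.

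GC boxes were found in 6 of the 11 windows of members, against 45.0% of all windows. Counted by gene, 6 of the 9 members had one in any window, against 67.7% of the 12634 genes of the file with a window of the same symbol, so the members were close to the background. HBEGF held 5 of them, 2 of which overlap, one window of TGFA held 4, and BTC and ERBB4 held 1 each. ERBB2 and EREG, like EGF, had none in the windows used. Starts of these genes without a window here were not searched, so a GC box at another promoter would be missed. Thus EREG at 125 RPKM had none, and ERBB4 at 0.0144 RPKM had 1. Of these 12634 genes, 79.8% of those with at least 1 RPKM and 47.7% of those below held a GC box in any window.

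The remaining EGF-like ligands were all below 1 RPKM. NRG2 stood at 0.569 RPKM, NRG1 at 0.549, NRG4 at 0.354 and EPGN at 0.101 RPKM, and NRG3 was listed at 0. NRG1 and NRG2 encode neuregulins that bind ERBB3 and ERBB4, and NRG3 and NRG4 neuregulins that bind ERBB4. Thus 0 of these 5 genes reached 1 RPKM, against 57.0% of all genes, whereas the receptor ERBB3 stood at 9.23 RPKM.

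Genes that act on ligand release were mostly measured at moderate levels, with a median of 9.76 RPKM. At least 1 RPKM was reached by 5 of 6, against 57.0% of all genes. RHBDF2, for an inactive rhomboid protein that helps ADAM17 mature and reach the cell surface, stood at 19.1 RPKM. ADAM17, the main protease that releases amphiregulin, epiregulin and transforming growth factor alpha, stood at 11.0 RPKM, and FRMD8, a partner of the inactive rhomboids, at 10.3 RPKM. RHBDF1 was at 8.31 RPKM, and ADAM12, a protease linked to release of HBEGF, at 0.00705 RPKM.

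Of 10 adaptors and proximal effectors 8 had at least 1 RPKM, against 57.0% of all genes, with a median of 2.47 RPKM. SHC1 and GRB2, which couple receptors to RAS activation, stood at 84.3 and 36.9 RPKM, and GRB7 at 22.3 RPKM. SHC3, a form mainly of the nervous system, was at 0.158 and the docking protein gene GAB1 at 0.361 RPKM. Of 14 negative regulators 13 had at least 1 RPKM, against the same 57.0% of all genes, with a median of 4.72 RPKM. ERRFI1, whose product MIG6 binds and inhibits the EGFR kinase and which is induced by EGFR signalling, was the highest at 193 RPKM, rank 234 of all genes and 13.5 times EGFR. SPRY4, a feedback inhibitor of the MAPK route, stood at 53.7 and STUB1, a ubiquitin ligase gene, at 42.2 RPKM. CBLB, for a ubiquitin ligase of activated receptors, was at 1.31 and SPRY1 at 0.617 RPKM.

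The response list holds genes known to be induced by ERBB or MAPK signalling. All 11 had at least 1 RPKM, against 57.0% of all genes, and the lowest was at 11.9 RPKM. Their median was 66.2 RPKM. IER3, an immediate early gene, stood at 844 RPKM and rank 46, PHLDA1 at 142 and CCND1, for cyclin D1, at 109 RPKM. The lowest were the transcription factor genes FOS at 11.9 and ETV5 at 25.8 RPKM. These genes answer to many signals, so their levels are not a measure of ERBB activity. Over the 5 lists 37 of 46 genes had at least 1 RPKM, against 57.0% of all genes. The lists were chosen with earlier results of these data known, so these counts are a description only.

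**Figure D5:**
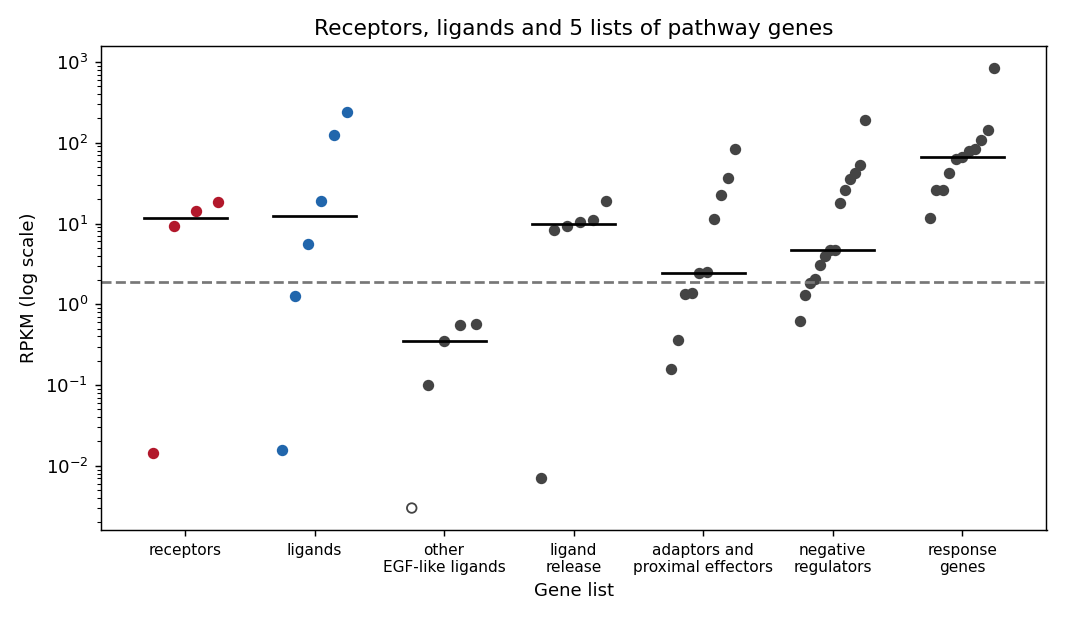
RPKM (log axis) of the receptors (red), ligands (blue) and 5 lists of pathway genes (dark grey), 1 point per gene; bars are list medians, the dashed line is the median of all genes, and the open circle at the bottom is NRG3, listed at 0. The median runs from 0.354 RPKM for the other EGF-like ligands to 66.2 RPKM for the response genes.

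The labelled cell line was checked against marker genes. Of 9 epithelial and intestinal markers 6 (66.7%) had at least 1 RPKM, not far from the 57.0% of all genes. The highest were the keratin genes KRT19, KRT8 and KRT18 at 543, 378 and 268 RPKM, and EPCAM stood at 79.5 RPKM. VIL1, CDX1 and CDH17 of the intestinal lineage were near 0, between 0.0242 and 0.0464 RPKM, while CDX2 was at 9.19 RPKM. Of 10 markers of blood, endothelial and stromal cells 9 were below 1 RPKM, so 10% reached it, against 57.0% of all genes. PTPRC, CD3E and DCN were listed at 0. The exception was the collagen gene COL1A1 at 14.5 RPKM, with COL1A2 at 0.0277 and COL3A1 at 0.00781 RPKM.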

How the data were processed

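Expression was measured in 1 polyA RNA library of HCT116 cells. RPKM values per RefSeq gene were deposited by the authors, who per the deposited readme aligned reads to hg18 with TopHat and computed the values with Cufflinks. The submitters' processing notes give its version as 1.1.0. The sources used here do not give strand use, read filters, depth or the handling of reads with several matches, and gene model lengths were not used here, so whole reads could not be recovered from the RPKM steps. Each symbol occurred once in the file. Genes were ranked by RPKM over all 20423 genes, and log2 differences used a pseudocount of 1 RPKM. No test or interval was computed, because there is 1 library. The ranking was tested on simulated data. Named genes were the 10 members, the other EGF-like ligands, and the highest 3 and lowest 2 of each further pathway list; neighbours, markers and receptor tyrosine kinases were named beyond this rule, after values had been seen. All 75 genes of the lists were found in the file. Members and lists were chosen with earlier results of these data known. Neighbours and promoter windows came from RefSeq (GRCh38.p14), matched by symbol, or for neighbours by a single older symbol. Alternatives were thresholds of 0.1 and 5 RPKM, a pseudocount of 0.1 RPKM, and ranks and medians over genes above 0. Python 3.11.15, pandas 2.3.3 and matplotlib 3.10.9 were used.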

Additional observations from a re-analysis of the deposited data

How the results depend on the processing

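No paired analysis was possible because the values come from 1 RNA library, and the replicate numbers in the labels belong to insertion libraries that were not used. The median of the members was the same with members at 0 left out, since none was at 0, and with the highest entry of each symbol, since none was repeated. At least 0.1 RPKM was reached by 8 members and 44 of the 46 pathway genes, against 71.9% of all genes. At least 5 RPKM was reached by 7 members and 26 of the 46 pathway genes, against 36.0% of all genes. The log2 difference between ERBB2 and EGFR was 0.37 with a pseudocount of 0.1 RPKM. The ratio of summed ligand to summed receptor RPKM was 3.61 without AREG, an alternative chosen after seeing the data. Ranked among genes above 0 only, the share of genes lower than EGF and ERBB4 was 3.29% and 3.04%, against 19.4% and 19.2% among all genes, and that of AREG was 98.9%. Ranked among genes of at least 1 RPKM, HBEGF moved from 65.9% to 40.1% and BTC from 45.3% to 4.02%. No member changed sides of the median gene when the median was taken over genes above 0, 3.55 RPKM. The pseudocount cannot change the side, since it is added to both values. Depth is unknown, so it cannot be said whether EGF or ERBB4 was above the level of a few reads.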
